A study of Homo sapiens with 24 samples.

Results

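The genes described here are 10 immediate-early genes: EGR1 and EGR3, the 4 FOS genes FOS, FOSB, FOSL1 and FOSL2, the 3 JUN genes JUN, JUNB and JUND, and IER2. They were taken by name, as 10 of the 34213 genes in the deposited table, by a choice made with earlier results of these data known, and all 10 passed the low-count filter that left 16076 genes for testing. RNA was sequenced from HEL cells, an established human erythroleukaemia line that carries an activating mutation of JAK2. Cells received DMSO, the solvent control, or 500 nM of 1 of 5 JAK inhibitors used or tested in myeloproliferative neoplasms: ruxolitinib, fedratinib, momelotinib, pacritinib or itacitinib. Each treatment was sampled after 4 h and after 48 h, which gives 12 groups of 2 libraries and 24 libraries in all. Every group is the same unmodified line, no agent other than the inhibitor or DMSO is named, and each inhibitor was used at 1 concentration. The labels call the treatments duplicates and do not say whether these were separate cultures, so a p-value here weighs a difference against duplicate spread alone, and that spread may be technical.

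Immediate-early genes are transcribed within minutes of a signal, from factors already present in the cell and without new protein synthesis. ERK activates ternary complex factors that sit with SRF on the serum response elements of EGR1 and FOS, and cytokine receptors reach the same genes through JAK kinases, RAS and ERK as well as through STAT proteins. FOS proteins bind DNA only as partners of JUN proteins, in the dimers called AP-1, whereas JUN proteins can also pair with each other or with ATF proteins. In erythroid and megakaryocytic cells these factors are known to link growth factor signals to proliferation and differentiation.

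EGR1 (ENSG00000120738), a zinc-finger activator, lies on chromosome 5 at 138465490 to 138469315 on the plus strand, and all positions here are from GRCh38 with GENCODE 29. EGR3 (ENSG00000179388) encodes a related zinc-finger factor. FOS (ENSG00000170345), the founding FOS protein, lies on chromosome 14 at 75278774 to 75282230 (plus). FOSB (ENSG00000125740), its close paralog with a transactivation domain, lies on chromosome 19 at 45467995 to 45475179 (plus) and overlaps ERCC1 on the other strand. FOSL1 (ENSG00000175592) and FOSL2 (ENSG00000075426) encode FRA proteins, which lack that strong activation domain and accumulate more slowly. FOSL1 lies on chromosome 11 at 65892049 to 65900573 (minus) and FOSL2 on chromosome 2 at 28392448 to 28417312 (plus). JUN (ENSG00000177606), a strong AP-1 activator and a gene that its own protein can switch on, is a gene of a single exon on chromosome 1 at 58780788 to 58784327 (minus). JUNB (ENSG00000171223), a weaker activator that can oppose JUN, lies on chromosome 19 at 12791496 to 12793315 (plus) and overlaps HOOK2 on the other strand. JUND (ENSG00000130522) lies on chromosome 19 at 18279760 to 18281622 (minus). It is generally described as the JUN gene with the steadiest expression. Here JUNB changed less between the DMSO times, by -0.12 against -0.52 for JUND on the log2 scale. IER2 (ENSG00000160888) encodes a nuclear protein of the first wave of induced genes and lies on chromosome 19 at 13150415 to 13154908 (plus). Strandedness of the counting is not given in the sources used here, so reads of overlapping genes on opposite strands cannot be told apart. FOSL2 and IER2 each overlap an annotated antisense transcript, FOSL2 also a sense-intronic one, and EGR3 a transcript on the other strand, and the levels of these transcripts are not analysed here. ERCC1 stood at 62.7 to 74.7 CPM (counts scaled to a common library size) and was not called in any comparison with DMSO or between the DMSO times. HOOK2 stood at 7.76 to 15.7 CPM and was called higher with itacitinib at 4 h (0.53), with pacritinib at 48 h (0.42) and between the DMSO times (0.45), in none of which JUNB was called.

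The sequences just upstream of 4 members, EGR1, FOS, JUN and JUND, are shown. Such stretches hold elements through which ERK, cAMP and JUN itself are known to act. Being shown does not rank these 4 by their changes, and no sequence was matched for EGR3 or FOSL1. Of the 10 members, 8 were matched by symbol in RefSeq (GRCh38.p14), and the window searched was the 250 bases before the RefSeq start. Capitals mark matches on either strand to a CArG box (the SRF core of a serum response element), a full cAMP element TGACGTCA, its core TGACG, the JUN elements jun1 (TGACATCA) and jun2 (TTACCTCA), an AP-1 element TGANTCA with C or G at N, an EGR element GCGNGGGCG, a STAT-type element TTCNNNGAA, TATAAA or CCAAT. A full cAMP element always contains its core. FOS is shown only as far as the first GENCODE 29 transcript, and JUN only as 30 bases around each named element, because GENCODE 29 starts their transcripts further upstream than RefSeq.
EGR1, chr5:138465229-138465478, plus strand: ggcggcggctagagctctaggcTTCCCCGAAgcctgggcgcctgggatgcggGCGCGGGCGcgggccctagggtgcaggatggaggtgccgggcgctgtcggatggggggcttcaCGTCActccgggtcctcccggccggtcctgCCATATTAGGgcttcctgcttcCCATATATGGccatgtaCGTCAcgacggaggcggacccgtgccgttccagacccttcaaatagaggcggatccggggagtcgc
FOS, chr14:75278578-75278773, plus strand: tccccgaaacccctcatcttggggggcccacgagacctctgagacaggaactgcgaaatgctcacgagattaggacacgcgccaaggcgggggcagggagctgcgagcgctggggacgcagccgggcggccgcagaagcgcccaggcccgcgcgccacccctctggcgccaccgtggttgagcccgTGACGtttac
JUN, jun2 element, chr1:58784215-58784244, minus strand: gcagcggagcaTTACCTCAtcccgtgagcc
JUN, jun1 element, chr1:58784096-58784125, minus strand: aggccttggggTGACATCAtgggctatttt
JUND, chr19:18281623-18281872, minus strand: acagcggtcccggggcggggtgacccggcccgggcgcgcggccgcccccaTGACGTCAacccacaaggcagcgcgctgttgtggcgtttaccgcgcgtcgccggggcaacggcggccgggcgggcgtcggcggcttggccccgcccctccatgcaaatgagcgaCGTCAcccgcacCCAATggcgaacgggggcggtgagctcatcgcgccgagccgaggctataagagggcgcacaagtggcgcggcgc

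EGR1 held 2 CArG boxes, CCATATTAGG at 105 to 96 bases before the start and CCATATATGG at 83 to 74 bases, and 1.16% of 35116 RefSeq promoters of that length held at least 1. It also held a STAT-type match (6.57% of promoters), an EGR match (8.41%) and a pair of cAMP cores (21.2% of promoters held at least 1). FOS held a cAMP core at 64 to 60 bases, and the serum response element described for FOS lies outside this window. JUN held jun2 at 186 to 179 bases (0.644% of promoters) and jun1 at 67 to 60 bases (2.37%). JUND held a full cAMP element at 200 to 193 bases (1.65%) and a CCAAT match (32%). The AP-1 letters (4.2% of promoters) were in none of the 8 matched windows, and TATAAA (10.7%) was in those of FOS, FOSB and JUNB. These matches are letters in a window and say nothing of which factor was bound.

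Library totals ran from 32153866 to 56618281 counts. Markers of the line were abundant in every library, with HBG2 (fetal globin) at 1720 to 2960 CPM, ITGA2B (a megakaryocyte integrin) at 712 to 927 CPM and JAK2 at 159 to 286 CPM. Among markers of other cell types, CD3E, MS4A1, CD14, EPCAM and DCN were highest at 0.263, 0.0278, 0.256, 0.297 and 0.139 CPM, KRT8 reached 1.09 CPM and COL1A1 reached 1.01 CPM. The share of reads from RN7SL genes (RNA of the signal recognition particle) was 2.42% and 2.52% in the DMSO libraries at 4 h, below the 2.8% to 3.98% of the inhibitor libraries at 4 h. At 48 h it was 3.05% and 3.36% with DMSO and 3.1% to 4.76% with an inhibitor. The part of this share in the member changes was not tested.

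**Figure D1:**
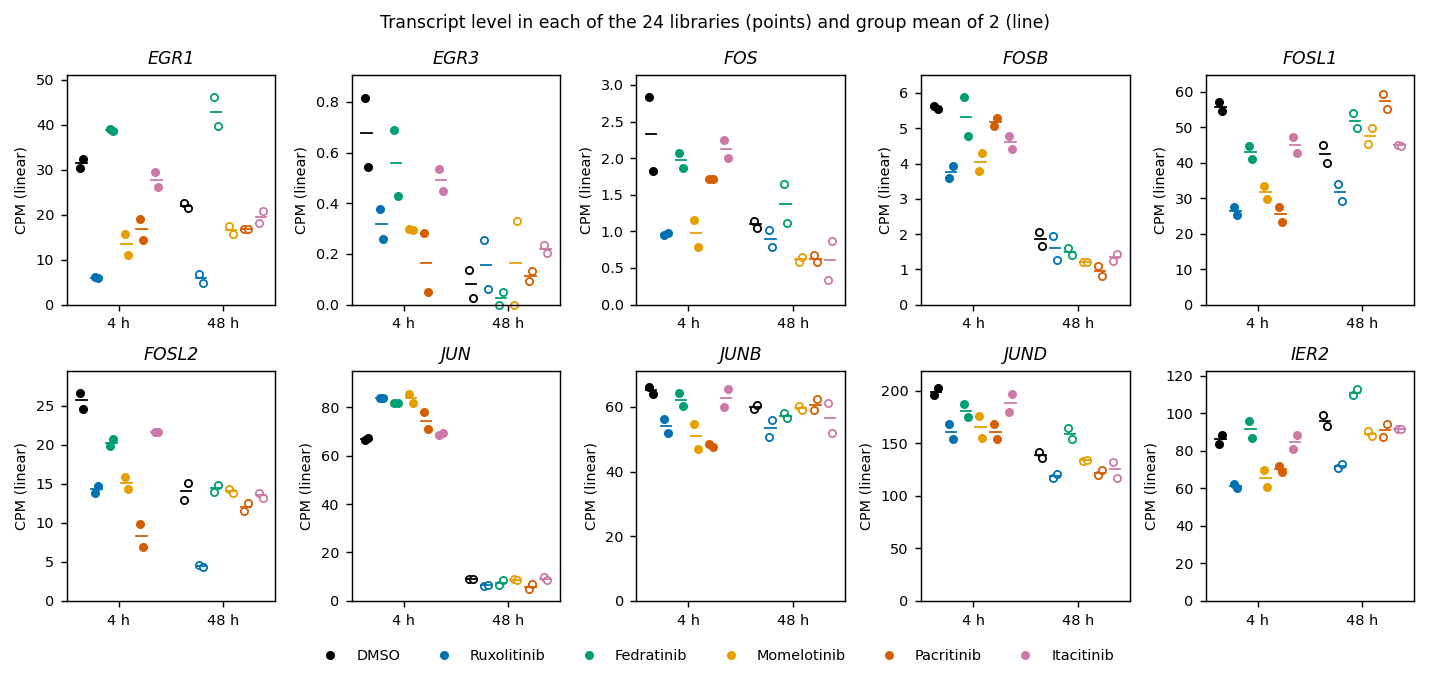
Level of each of the 10 genes in CPM (linear axis from 0) in all 24 libraries, with filled points at 4 h, open points at 48 h, colours for treatment and a line at the mean of the 2 libraries of a group. JUN stood at 66.6 to 85.5 CPM in every library at 4 h and at 4.87 to 9.71 CPM in every library at 48 h, and EGR1 was lowest with ruxolitinib and highest with fedratinib at both times.

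Levels of different genes are compared per kilobase of exon, as CPM per kb over the union of a gene's annotated exons, which can be longer than any 1 transcript. With DMSO at 4 h JUND led at a mean of 107 CPM per kb, followed by JUNB at 35.8, FOSL1 at 29.6, IER2 at 28.0, JUN at 18.9 CPM per kb, and EGR1 came next. FOSL2 stood at 3.59, FOSB at 1.01, FOS at 0.72 and EGR3 at 0.14 CPM per kb. FOS, FOSB and EGR3 were therefore the scarcest members, and EGR3 rested on 27 and 25 reads in these libraries. With DMSO at 48 h JUND (74.6 CPM per kb), JUNB (32.9), IER2 (31.3) and FOSL1 (22.5) led, and JUN stood at 2.57 CPM per kb, below EGR1 at 7.01.

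The first comparison asks how these genes differed between the 2 sampling times without inhibitor. From 4 h to 48 h in DMSO, 8 of the 10 genes fell and none rose, against 4.12% of all tested genes called lower and 4.04% called higher. The median log2 change of the 10 was -0.69, and that of all tested genes was 0.00488. JUN fell most among the well-counted members. Its level was 66.6 and 67.3 CPM at 4 h and 8.98 and 9.23 CPM at 48 h. The groups lay far apart, and the difference of 2.88 on the log2 scale (SE 0.09) was a 7.35-fold fall with an adjusted p of 1.89e-21 (edgeR quasi-likelihood test, Benjamini-Hochberg). Ranked by this change, JUN came at place 2 from the bottom among the 9470 genes whose average log2 CPM was 3 or more. FOSB, FOSL2 and JUND fell less. FOSB was at 5.62 and 5.56 CPM at 4 h and at 2.06 and 1.67 CPM at 48 h, and fell by 1.58 (SE 0.19, adjusted p = 1.09e-06). FOSL2 was at 26.7 and 24.6 CPM, then at 13 and 15.1 CPM, and fell by 0.86 (SE 0.10, adjusted p = 7.26e-07). JUND was at 196 and 202 CPM, then at 142 and 136 CPM, and fell by 0.52 (SE 0.06, adjusted p = 9.24e-07). For these 4 genes the times did not overlap, and each call held whichever library was omitted.

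EGR1, FOSL1, FOS and EGR3 also fell between the DMSO times, with calls that depended on single libraries. EGR1 was at 30.4 and 32.4 CPM at 4 h and at 22.6 and 21.4 CPM at 48 h, lower by -0.52 (SE 0.12, adjusted p = 0.00491). FOSL1 was at 57 and 54.5 CPM, then at 45.1 and 40.0 CPM, lower by -0.39 (SE 0.08, adjusted p = 0.00178). FOS was at 2.84 and 1.83 CPM, then at 1.14 and 1.05 CPM, lower by -1.07 (SE 0.32, adjusted p = 0.0315). None of these 3 overlapped between the times. EGR3 had 27 and 25 reads at 4 h and 5 and 1 reads at 48 h, a fitted difference of -3.0 (SE 0.88, adjusted p = 0.0285). The EGR1 call was lost without the second DMSO library at 4 h (adjusted p = 0.0779) or at 48 h (0.0734), and that of FOSL1 without the second at 48 h (0.0777). The FOS call was lost without the first at 4 h (0.293) or without either at 48 h (0.119 and 0.185), and that of EGR3 in all 4 such fits (0.0796 to 0.304). Without the second DMSO library at 48 h, 4 of the 8 calls held. JUNB (-0.12, adjusted p = 0.343) and IER2 (0.16, adjusted p = 0.109) were not called. IER2 was at 83.5 and 88.6 CPM at 4 h and at 99.0 and 93.1 CPM at 48 h. Time in culture and time since treatment cannot be told apart in this design.

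The fall of JUN was shared by every treatment. Over the 12 libraries at 4 h its lowest level was 66.6 CPM, the median 79.8 and the highest 85.5 CPM. Over the 12 at 48 h the lowest was 4.87, the median 8.49 and the highest 9.71 CPM. FOSB behaved alike in that its 4-h libraries (3.60 to 5.90 CPM) lay above all its 48-h libraries (0.815 to 2.06 CPM). For the other 8 members the ranges of the 2 times overlapped over all treatments. JUND, for example, ran from 154 to 202 CPM at 4 h and from 117 to 164 CPM at 48 h.

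Inhibitors were then compared with DMSO at the same time, which asks how each gene differed with each inhibitor. Whether a difference came through inhibition of JAK or through another action of the compound was not tested. The 5 comparisons of a time share the same 2 DMSO libraries, so similarity among them is not independent. At 4 h ruxolitinib lowered 8 members and raised 1, against 5.04% of all genes called lower and 3.42% called higher. Momelotinib lowered 7 and raised 1, against 3.79% and 2.21%. Pacritinib lowered 7 and raised none, against 17.4% and 13.1%. Fedratinib lowered 1 and raised 1, against 0.97% and 0.616%. With itacitinib none of the 10 was called by edgeR, against 0.106% of all genes called lower and 0.672% called higher, although 2 had an unadjusted p under 0.05 and DESeq2 called 1 (FOSL1). At 48 h ruxolitinib lowered 6 and raised none, against 13.2% of all genes called lower and 12.5% called higher. Pacritinib lowered 4 and raised 1, against 10.1% and 8.26%, and fedratinib raised 3 and lowered none, against 3.66% called higher and 4.04% called lower. With momelotinib at 48 h (0.946% of all genes called lower and 0.995% higher) and with itacitinib (0.355% and 0.0871%) no member was called by edgeR or DESeq2, and each had 3 members with an unadjusted p under 0.05. Most members thus fell at 4 h with ruxolitinib, momelotinib and pacritinib, while the share of all genes called was much larger with pacritinib. Leaving out 1 library lowered these counts by over 1.5 times in some comparisons. Ruxolitinib at 4 h kept 5 of 9 calls without its second library and momelotinib at 4 h 5 of 8 without its second. Fedratinib at 4 h kept 1 of 2 without its first library and 0 without any other library of the comparison, and at 48 h 1 of 3 without the second DMSO or its own first library. Pacritinib at 48 h kept 2 of 5 without the first DMSO or its own second library, and 3 without either of the others. The median log2 change of the 10 at 4 h was -0.70 with ruxolitinib, -0.62 with momelotinib, -0.43 with pacritinib, -0.15 with itacitinib and -0.11 with fedratinib. At 48 h the medians were -0.35 with ruxolitinib, -0.21 with pacritinib, -0.08 with itacitinib, -0.05 with momelotinib and 0.12 with fedratinib. The medians of all tested genes lay between -0.00486 and 0.00665.

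**Figure D2:**
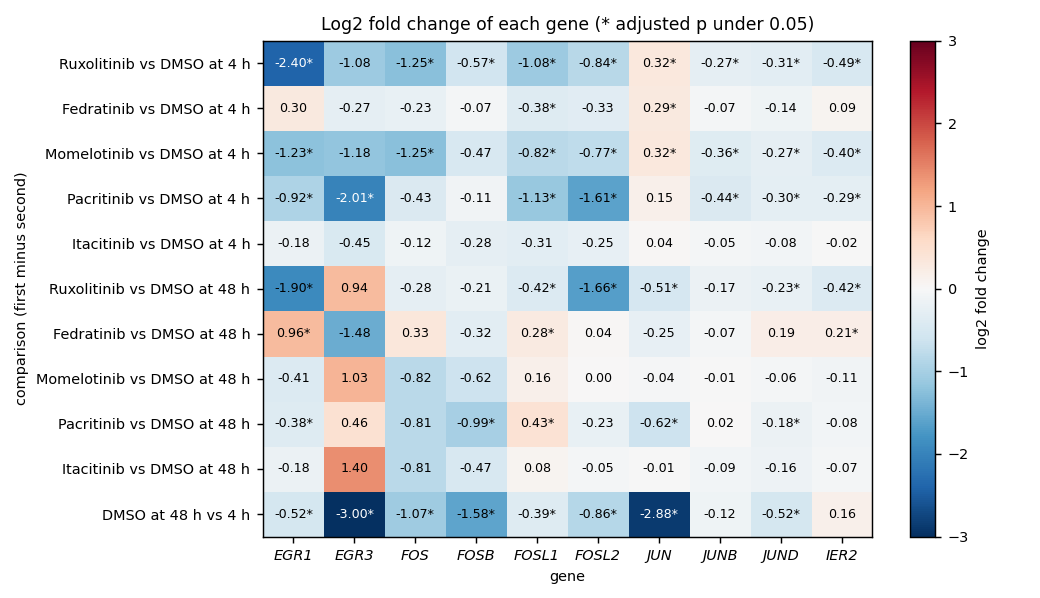
Log2 fold change of each gene (columns) in each inhibitor against DMSO and in DMSO at 48 h against 4 h (rows), with colour and number giving the change and an asterisk an adjusted p under 0.05. EGR1 ranged from -2.40 with ruxolitinib at 4 h to 0.96 with fedratinib at 48 h, and JUN was higher with ruxolitinib at 4 h and lower at 48 h.

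EGR1 separated the inhibitors most widely. At 4 h it was at 30.4 and 32.4 CPM with DMSO, 6.13 and 5.81 CPM with ruxolitinib, 15.8 and 11.1 CPM with momelotinib, and 19.0 and 14.4 CPM with pacritinib. All 3 inhibitor groups lay below DMSO without overlap, ruxolitinib lowest. Ruxolitinib lowered it by -2.40 (SE 0.14, adjusted p = 1.96e-14), a 5.28-fold fall, momelotinib by -1.23 (SE 0.12, adjusted p = 1.65e-08) and pacritinib by -0.92 (SE 0.12, adjusted p = 5.29e-07). These 3 calls held with any 1 library left out. Fedratinib (39.0 and 38.6 CPM) lay above DMSO and itacitinib (29.5 and 26.2 CPM) below it, and neither passed the test (0.30, adjusted p = 0.192, and -0.18, adjusted p = 0.621). The 95% interval for itacitinib ran from -0.41 to 0.06, a range that does not reach the fall seen with pacritinib. From the highest mean at 4 h the order was fedratinib, DMSO, itacitinib, pacritinib, momelotinib and ruxolitinib, and the difference between momelotinib and pacritinib missed the threshold (-0.32, 95% interval -0.58 to -0.05, adjusted p = 0.0805). Without the low-count filter it passed (adjusted p = 0.013), in a setting that lowered several adjusted p-values at nearly unchanged log2 changes. Without the first momelotinib library that adjusted p was 0.00269, and without the second pacritinib library 0.0235.

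At 48 h EGR1 was at 22.6 and 21.4 CPM with DMSO and at 6.84 and 4.90 CPM with ruxolitinib, a 3.73-fold fall (-1.90, SE 0.14, adjusted p = 3.09e-12). Fedratinib stood at 46.2 and 39.7 CPM, a 1.95-fold rise (0.96, SE 0.12, adjusted p = 1.18e-06). Ruxolitinib and fedratinib thus lay on opposite sides of DMSO, neither overlapping it, and both calls held with any 1 library left out. Pacritinib was at 16.8 and 16.9 CPM, lower by -0.38 (SE 0.13, adjusted p = 0.0302). That call was lost with each of the 4 libraries left out (adjusted p = 0.0694 to 0.144) and with DESeq2 (0.0863). Momelotinib (17.5 and 15.6 CPM, adjusted p = 0.0818) and itacitinib (18.1 and 20.7 CPM, adjusted p = 0.614) also lay below DMSO and were not called. The change with momelotinib was -0.41 (95% interval -0.66 to -0.15) and that with itacitinib -0.18. The estimate for momelotinib was no smaller than that for pacritinib, so the call does not set these 2 inhibitors apart. From the highest, the means at 48 h were fedratinib 42.9, DMSO 22.0, itacitinib 19.4, pacritinib 16.9, momelotinib 16.6 and ruxolitinib 5.87 CPM. The neighbours DMSO and itacitinib (adjusted p = 0.614), itacitinib and pacritinib (0.294), and pacritinib and momelotinib (0.946) were not called as different. The libraries of the first 2 of these pairs did not overlap, so small differences remain possible.

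EGR3 was too scarce for most comparisons, with 0 to 27 reads a library. At 4 h it was at 0.816 and 0.543 CPM with DMSO and at 0.282 and 0.0496 CPM with pacritinib, which was called lower (-2.01, SE 0.77, adjusted p = 0.0472). The call was lost without either DMSO library (adjusted p = 0.222 and 0.0898) or without the second pacritinib library (0.399). At 48 h its 12 libraries ran from 0 to 0.328 CPM, and no inhibitor was called against DMSO. Differences in EGR3 at 48 h were not detectable at this depth.

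Among the FOS genes, FOSL1 and FOSL2 carried most of the reads and most of the calls. FOSL1 at 4 h was at 57 and 54.5 CPM with DMSO, 27.6 and 25.3 CPM with ruxolitinib, 27.4 and 23.4 CPM with pacritinib, and 33.4 and 29.9 CPM with momelotinib. All 6 of these inhibitor libraries lay well under DMSO, those of momelotinib highest. Pacritinib lowered FOSL1 by -1.13 (SE 0.08, adjusted p = 4.18e-12), ruxolitinib by -1.08 (SE 0.08, adjusted p = 2.51e-11) and momelotinib by -0.82 (SE 0.08, adjusted p = 1.62e-08), and each call held whichever library was omitted. Fedratinib (44.6 and 41.1 CPM) was called lower by -0.38 (SE 0.08, adjusted p = 0.00903). Leaving out either DMSO library (adjusted p = 0.0712 and 0.0616) or the second fedratinib library (0.172) ended that call. Itacitinib (47.3 and 42.7 CPM) also lay below DMSO without passing the test (-0.31, adjusted p = 0.0625), and without its first library the adjusted p was 0.0352.

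At 48 h the direction of FOSL1 depended on the inhibitor. It was at 45.1 and 40.0 CPM with DMSO, 34.1 and 29.3 CPM with ruxolitinib, and 59.4 and 55.1 CPM with pacritinib. Ruxolitinib lay below and pacritinib above DMSO, with no overlap. The change was -0.42 with ruxolitinib (SE 0.08, adjusted p = 0.000221) and 0.43 with pacritinib (SE 0.08, adjusted p = 0.000236), each in all 4 fits with a library left out. Fedratinib (53.9 and 49.7 CPM) was called higher by 0.28 (SE 0.08, adjusted p = 0.0248), and this was lost without the second DMSO library (adjusted p = 0.354) or the first fedratinib library (0.282).

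FOSL2 was at 26.7 and 24.6 CPM with DMSO at 4 h and at 9.81 and 6.96 CPM with pacritinib, the largest fall of this gene at that time (-1.61, SE 0.11, adjusted p = 5.57e-13, 3.06-fold). Ruxolitinib (13.8 and 14.8 CPM) lowered it by -0.84 (SE 0.10, adjusted p = 4.98e-07) and momelotinib (15.9 and 14.3 CPM) by -0.77 (SE 0.10, adjusted p = 3.44e-06). No library of these 3 groups reached the DMSO range, and all 3 calls held in each fit with a library left out. At 48 h ruxolitinib alone was called among the 5 inhibitors: FOSL2 was at 13 and 15.1 CPM with DMSO and at 4.6 and 4.3 CPM with ruxolitinib, a 3.16-fold fall (-1.66, SE 0.13, adjusted p = 2.99e-12). The other 4 inhibitors lay at 11.5 to 14.9 CPM, pacritinib just below the DMSO range and the rest overlapping it.

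FOS and FOSB were scarce, FOS with 16 to 94 reads a library. FOS at 4 h was at 2.84 and 1.83 CPM with DMSO, 0.948 and 0.981 CPM with ruxolitinib, and 1.16 and 0.792 CPM with momelotinib. Both inhibitor groups lay below the lower DMSO library. The change was -1.25 with ruxolitinib (SE 0.33, adjusted p = 0.0109) and -1.25 with momelotinib (SE 0.32, adjusted p = 0.0135). Without the first DMSO library the adjusted p was 0.19 and 0.213, without either ruxolitinib library 0.0828 and 0.0811, and without the second momelotinib library 0.157. FOSB was at 5.62 and 5.56 CPM with DMSO at 4 h and at 3.60 and 3.92 CPM with ruxolitinib, lower by -0.57 (SE 0.18, adjusted p = 0.0399), a call lost in all 4 fits with a library left out (0.117 to 0.226). At 48 h FOSB was at 2.06 and 1.67 CPM with DMSO and at 1.08 and 0.815 CPM with pacritinib, lower by -0.99 (SE 0.24, adjusted p = 0.00387). This was lost without the first DMSO library (adjusted p = 0.059) or the second pacritinib library (0.0734). For FOS at 48 h no inhibitor was called. Momelotinib (-0.82, 95% interval -1.57 to -0.07), pacritinib (-0.81, -1.57 to -0.05) and itacitinib (-0.81, -1.53 to -0.1) lay below DMSO. The intervals of ruxolitinib (-1 to 0.44) and fedratinib (-0.35 to 1.01) reached both directions.

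JUN moved against most other members at 4 h. It was at 66.6 and 67.3 CPM with DMSO, 83.6 and 83.6 CPM with ruxolitinib, 85.5 and 81.7 CPM with momelotinib, and 81.8 and 81.8 CPM with fedratinib. These 6 inhibitor libraries all lay above DMSO, by a small margin. Ruxolitinib raised JUN by 0.32 (SE 0.07, adjusted p = 0.00343), momelotinib by 0.32 (SE 0.07, adjusted p = 0.00462) and fedratinib by 0.29 (SE 0.07, adjusted p = 0.035). The ruxolitinib call held with any 1 library left out, that of momelotinib was lost without the first DMSO library (adjusted p = 0.0581), and that of fedratinib was lost in all 4 such fits (0.15 to 0.236). Pacritinib stood at 77.9 and 71.0 CPM (0.15, adjusted p = 0.114) and itacitinib at 68.5 and 69.5 CPM (0.04, adjusted p = 0.898).

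At 48 h JUN lay below DMSO with 2 inhibitors, at a level far under that of 4 h. It was at 8.98 and 9.23 CPM with DMSO, 6.30 and 6.49 CPM with ruxolitinib, and 4.87 and 6.86 CPM with pacritinib. Neither group overlapped DMSO. The change was -0.51 with ruxolitinib (SE 0.12, adjusted p = 0.00102) and -0.62 with pacritinib (SE 0.12, adjusted p = 0.000239), each in all 4 fits with a library left out. Fedratinib at 6.70 and 8.52 CPM was not called (-0.25, adjusted p = 0.178), and without its second library the adjusted p was 0.0404.

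JUNB and JUND, the steadier JUN genes, differed from DMSO by small margins. JUNB at 4 h was at 66.1 and 64.1 CPM with DMSO and lowest with pacritinib, at 48.6 and 47.5 CPM (-0.44, SE 0.07, adjusted p = 1.6e-05), a call that held with any 1 library left out. Momelotinib (54.8 and 47.1 CPM, -0.36, adjusted p = 0.0013) and ruxolitinib (56.3 and 52.0 CPM, -0.27, adjusted p = 0.0137) also lowered it. The momelotinib call was lost without its second library (adjusted p = 0.0652). The ruxolitinib call was lost without either DMSO library (0.0949 and 0.0572) or its own second library (0.225). At 48 h no inhibitor was called for JUNB, whose 12 libraries lay between 50.7 and 62.3 CPM.

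JUND at 4 h was at 196 and 202 CPM with DMSO, 168 and 154 CPM with ruxolitinib, 176 and 155 CPM with momelotinib, and 168 and 154 CPM with pacritinib. All 6 of these inhibitor libraries lay below both DMSO libraries. The changes were -0.31 (adjusted p = 0.00104), -0.27 (adjusted p = 0.0056) and -0.30 (adjusted p = 0.000291), with an SE of 0.06 each. The ruxolitinib call was lost without its second library (adjusted p = 0.0706), and that of momelotinib without its second library (0.14) or the second DMSO library (0.0813). At 48 h ruxolitinib (117 and 121 CPM against 142 and 136 CPM with DMSO) lowered JUND by -0.23 (adjusted p = 0.00709), a call lost without the first DMSO (0.0828) or first ruxolitinib library (0.07). Pacritinib (120 and 124 CPM) was called lower by -0.18 (adjusted p = 0.0397), and this was lost in all 4 fits with a library left out (0.0596 to 0.208). Fedratinib (164 and 154 CPM) lay above DMSO without overlap and was just short of the threshold (0.19, adjusted p = 0.052). It was called higher with DESeq2 (adjusted p = 0.0431), without the low-count filter (0.0112), with the stricter filter (0.0471) and with the 48-h libraries alone (0.00904).

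IER2 fell with the same 3 inhibitors as EGR1 at 4 h, by less. At 4 h it was at 83.5 and 88.6 CPM with DMSO, 62.2 and 60.1 CPM with ruxolitinib, 69.8 and 60.9 CPM with momelotinib, and 72 and 68.6 CPM with pacritinib. No library of these inhibitors reached the DMSO range. The changes were -0.49 (adjusted p = 8.48e-07), -0.40 (adjusted p = 4.03e-05) and -0.29 (adjusted p = 0.000376), with an SE of 0.06 each, and all 3 held with any 1 library left out. At 48 h it was at 99.0 and 93.1 CPM with DMSO and at 71.0 and 73.0 CPM with ruxolitinib, lower by -0.42 (SE 0.06, adjusted p = 2.99e-06), again in all 4 fits with a library left out. Fedratinib (110 and 113 CPM) was called higher by 0.21 (SE 0.06, adjusted p = 0.024), a call lost in all 4 such fits (0.0539 to 0.302).

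Whether an inhibitor's change differed between 4 h and 48 h was tested as an interaction, with the change at 48 h minus that at 4 h. All 5 interactions use the same 4 DMSO libraries. With pacritinib 6 members were called (17.9% of all genes), with fedratinib 4 (4.12%), with ruxolitinib 3 (8.72%) and with momelotinib 3 (2.33%). With itacitinib none was called by edgeR or DESeq2, against 0.0124% of all genes, and 1 had an unadjusted p under 0.05. FOSL1 was called in 4 of the 5 interactions, each time higher at 48 h relative to DMSO than at 4 h. The difference was 1.56 with pacritinib (SE 0.12, adjusted p = 5e-11), 0.98 with momelotinib (SE 0.11, adjusted p = 1.55e-06), 0.66 with ruxolitinib (SE 0.12, adjusted p = 0.000239) and 0.66 with fedratinib (SE 0.11, adjusted p = 0.000539). All 4 held whichever of the 8 libraries was omitted.

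FOSL2 went in opposite directions between inhibitors in this test. Its fall deepened with ruxolitinib, by -0.82 (SE 0.16, adjusted p = 0.000845), and was smaller at 48 h with pacritinib, by 1.39 (SE 0.15, adjusted p = 1.01e-07), and with momelotinib, by 0.77 (SE 0.15, adjusted p = 0.0022). The change of JUN was lower at 48 h than at 4 h with ruxolitinib (-0.83, SE 0.14, adjusted p = 6.79e-05) and pacritinib (-0.77, SE 0.14, adjusted p = 0.000134), and that of JUNB was higher with pacritinib (0.46, SE 0.10, adjusted p = 0.00157). Each of these 6 interactions held in all 8 fits with a library left out. For EGR1 with ruxolitinib the interaction was not called (0.50, SE 0.21, 95% interval 0.08 to 0.92, adjusted p = 0.147). The estimate with pacritinib, which was called, was much the same (0.53), so the call does not set these inhibitors apart.

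**Figure D3:**
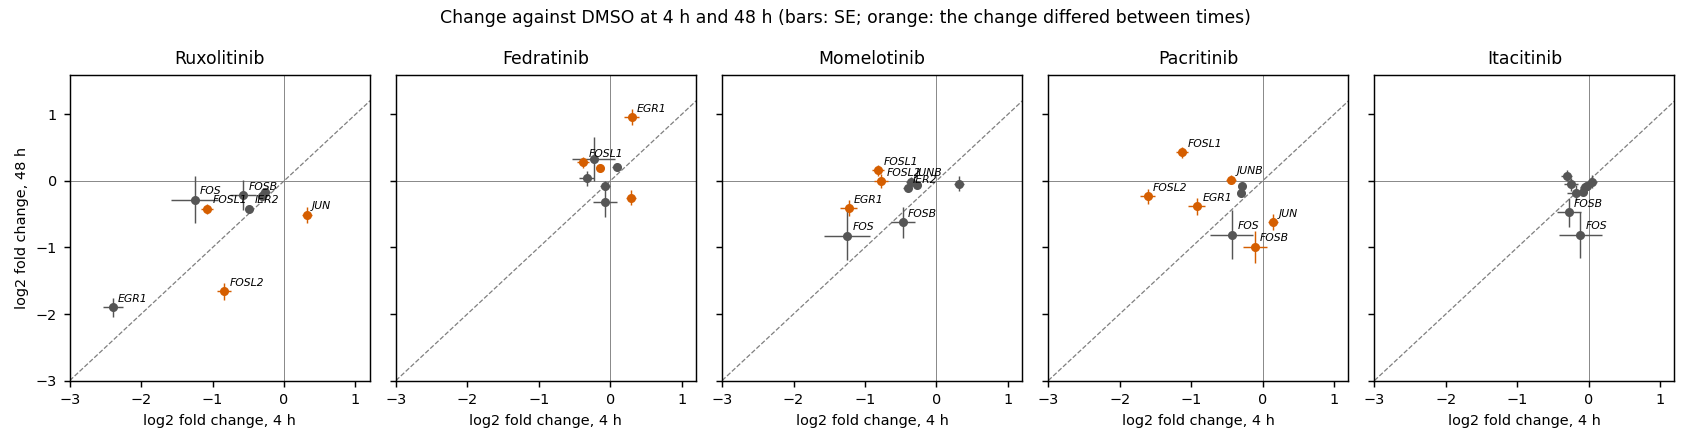
Log2 fold change against DMSO at 4 h (horizontal) and 48 h (vertical) of 9 of the genes, with EGR3 left out for its few reads, 1 panel per inhibitor, with bars for the SE, a dashed line of equal change and orange for genes whose change differed between the times at an adjusted p under 0.05. FOSL1 lies above the dashed line in all 5 panels, and FOSL2 lies below it with ruxolitinib and above it with pacritinib.

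Inhibitors were also compared with each other at the same concentration and time, in 10 pairs at each time, with p-values adjusted over all genes within each pair. Of 100 tests of a member in a pair, 40 were called at 4 h and 37 at 48 h. EGR1 differed in 8 of 10 pairs at 4 h and 7 at 48 h, IER2 in 7 and 7, FOSL1 in 7 and 6, and FOSL2 in 8 and 4. JUN differed in 2 and 5 pairs, and EGR3 in none. EGR1 was lower with ruxolitinib than with fedratinib by -2.70 at 4 h (SE 0.14, adjusted p = 1.24e-15), which is 6.51-fold, and by -2.87 at 48 h (SE 0.14, adjusted p = 6.57e-17), which is 7.29-fold. The libraries did not overlap in either comparison. At 4 h the number of members that differed was 4 for ruxolitinib and fedratinib (3.52% of all genes), 3 for ruxolitinib and pacritinib (25.6%), 7 for ruxolitinib and itacitinib (5.9%), and 5 for fedratinib and momelotinib (1.41%). It was 6 for fedratinib and pacritinib (28.7%), 2 for momelotinib and pacritinib (20.7%), 6 for momelotinib and itacitinib (2.76%), and 6 for pacritinib and itacitinib (29.1%). At 48 h ruxolitinib differed in 5 members each from fedratinib (20.6%), pacritinib (24.6%) and itacitinib (21.9%). Fedratinib differed from momelotinib in 4 (6.68%) and from pacritinib in 5 (12%), and pacritinib differed from momelotinib in 2 (8.07%) and from itacitinib in 2 (15.6%).

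Ruxolitinib and momelotinib, both given as inhibitors of JAK1 and JAK2, differed in 1 of the 10 members at 4 h (0.722% of all genes) and in 5 at 48 h (21.0%). The 1 at 4 h was EGR1, lower with ruxolitinib by -1.17 (SE 0.15, adjusted p = 1.12e-05). By unadjusted p under 0.05 there were 2, the other being FOSL1, lower with ruxolitinib by -0.26 (95% interval -0.44 to -0.09, adjusted p = 0.243). The interval of their difference in FOSL2 at 4 h ran from -0.29 to 0.14 and in JUN from -0.15 to 0.15. At 48 h FOSL2 was lower with ruxolitinib by -1.66 (SE 0.13, adjusted p = 3.67e-12). Ruxolitinib and pacritinib swapped order in FOSL2: it was higher with ruxolitinib by 0.77 at 4 h (SE 0.11, adjusted p = 4.21e-06) and lower by -1.43 at 48 h (SE 0.13, adjusted p = 1.89e-10). Fedratinib and itacitinib differed in none of the 10 by edgeR at 4 h (0.261% of all genes), where 2 had an unadjusted p under 0.05 and DESeq2 called 1, and in 4 at 48 h (5.94%), EGR1 among them (1.14, SE 0.12, adjusted p = 3.97e-08). Their EGR1 difference at 4 h was 0.48 (95% interval 0.25 to 0.71, adjusted p = 0.0582), and without the first itacitinib library its adjusted p was 0.0461. Momelotinib and itacitinib differed in none of the 10 at 48 h by edgeR or DESeq2 (1.01% of all genes), with none at an unadjusted p under 0.05, and the 95% interval of their EGR1 difference ran from -0.48 to 0.02.

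**Figure D4:**
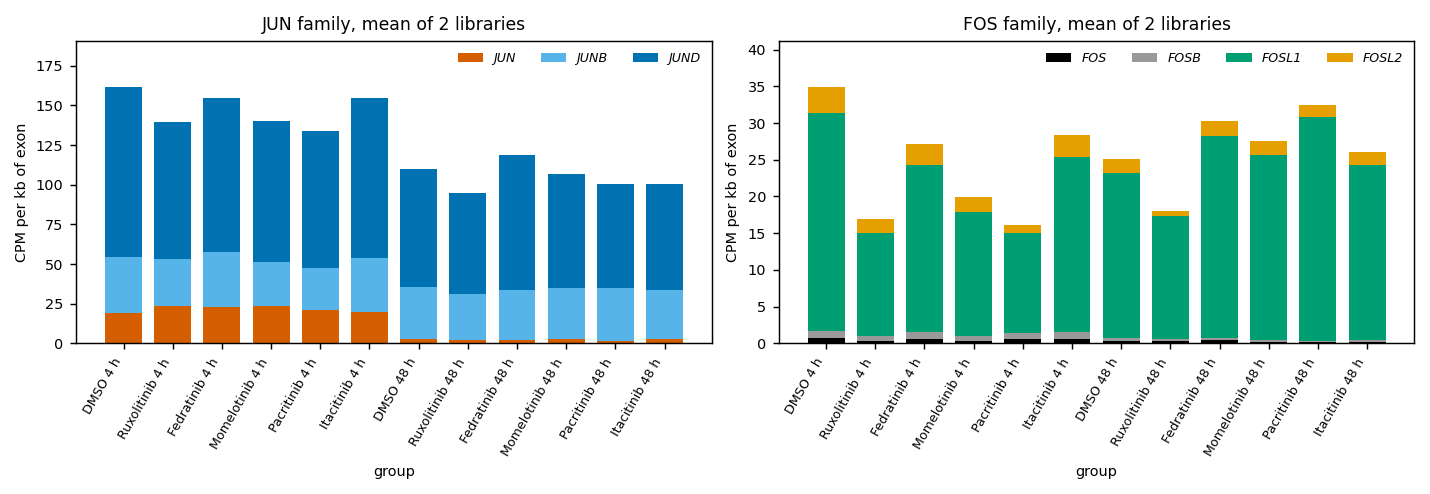
Summed level of the 3 JUN genes (left) and the 4 FOS genes (right) in CPM per kb of exon (linear axis from 0), as means of the 2 libraries of each of the 12 groups, with colours for genes. JUN made up 11.7% to 17.5% of the JUN sum in the 4-h libraries and 1.39% to 2.56% in the 48-h libraries, and FOSL1 made up most of the FOS sum in every group.

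Per kilobase, the make-up of both AP-1 families shifted with time. JUN was 11.7% to 17.5% of the summed JUN genes in single libraries at 4 h and 1.39% to 2.56% at 48 h, ranges that do not overlap. JUNB went from 19.2% to 22.7% at 4 h to 26.1% to 33.2% at 48 h, and JUND was 61.4% to 66.6% and then 64.9% to 72.3%. FOSL1 was 81.3% to 85.2% of the summed FOS genes at 4 h and 88.6% to 94.0% at 48 h. FOSL2 was 6.55% to 12.6% and then 3.31% to 8.82%, FOS 1.3% to 3.55% and then 0.405% to 1.62%, and FOSB 2.82% to 6.43% and then 0.47% to 1.81%. Across the 2 families JUND and JUNB were the highest per kilobase with DMSO at both times, followed by FOSL1. At 4 h the mean of JUN was above that of FOSL1 with ruxolitinib (23.6 against 14.0 CPM per kb), momelotinib (23.6 against 16.8), pacritinib (21.0 against 13.5) and fedratinib (23.1 against 22.7), and below it with DMSO (18.9 against 29.6) and itacitinib (19.5 against 23.9). The shares describe RNA and not protein.

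Across the 12 group means, which share the time effect and DMSO controls within a time, FOSB and JUN moved most alike of all member pairs (Pearson r = 0.96). JUND went with FOS (0.88) and FOSB (0.88), and FOSL1 with IER2 (0.84) and JUNB (0.84). JUN and IER2 had the most negative value (-0.55). Among 9444 other genes averaging log2 CPM 3 or more, the 3 most like EGR1 over the 12 groups were MFNG (r = 0.929), TAF13 (0.912) and SH2B3 (0.909). WAC (0.973) and VAPA (0.97) were among those most like JUN. For FOS they were GMEB1 (0.892), ATAD1 (0.884) and RNF114 (0.88), and for JUND they were RBM25 (0.954), PSMC1 (0.939) and ASXL1 (0.928). These are descriptions over 12 points.

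Genes of the same pathways are given for context, each list by its counts, to be read against the shares of all genes called given above. Of 26 tested other immediate-early genes, 8 were lower and 2 higher with ruxolitinib at 4 h, 7 and 1 with momelotinib, 15 and 2 with pacritinib, 0 and 2 with fedratinib, and none with itacitinib. MAFF, a small MAF factor, fell with ruxolitinib (-1.08, SE 0.18, adjusted p = 7.89e-05), and ATF3, a stress-induced ATF factor, fell with pacritinib (-1.44, SE 0.19, adjusted p = 4.46e-07). TRIB1, a pseudokinase gene, rose with ruxolitinib at 4 h (0.56, SE 0.06, adjusted p = 1.48e-08) and at 48 h (0.97, SE 0.06, adjusted p = 1.18e-14). RHOB, a small GTPase gene, was lower with all 5 inhibitors at 48 h, from -1.0 with ruxolitinib (SE 0.08, adjusted p = 2.81e-11) to -0.40 with itacitinib (SE 0.08, adjusted p = 0.0106). At 48 h the list had 7 lower and 4 higher with ruxolitinib, 2 and 1 with pacritinib, 1 and 3 with fedratinib, 1 and 1 with momelotinib, and 1 and 0 with itacitinib. Between the DMSO times 9 fell and 2 rose, with ATF3 at -3.27 (SE 0.23, adjusted p = 1.21e-11).

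ERK feedback and output genes, known transcripts downstream of that kinase, included some that fell with each inhibitor and none that rose. At 4 h 10 of 13 were lower with ruxolitinib (5.04% of all genes), 11 with pacritinib (17.4%) and 9 with momelotinib (3.79%). With fedratinib 2 were lower (0.97%) and with itacitinib 2 (0.106%). At 48 h the counts were 11 (13.2%), 7 (10.1%), 4 (0.946%), 1 (4.04%) and 3 (0.355%) in the same order. DUSP6, a phosphatase that switches ERK off, fell by 2.73 with ruxolitinib at 4 h (SE 0.15, adjusted p = 3.81e-15) and by 3.37 at 48 h (SE 0.15, adjusted p = 1.37e-17). Between the DMSO times 3 rose and 2 fell, with PHLDA1 at -2.61 (SE 0.13, adjusted p = 6.01e-16). JAK-STAT feedback genes, 8 in all, had 8 lower with ruxolitinib at 4 h, 8 with pacritinib, 6 with momelotinib, 3 with fedratinib and none with itacitinib. At 48 h 7 were lower with ruxolitinib (13.2% of all genes), 5 were higher with pacritinib (8.26%), and fedratinib had 1 of each. SOCS3, which blocks JAK signalling, changed by -2.61 with ruxolitinib at 4 h (SE 0.15, adjusted p = 1.09e-14) and by 0.46 with pacritinib at 48 h (SE 0.12, adjusted p = 0.00547).

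Transcripts of factors that act on the members or pair with them were also counted. Of all genes, 17.4% were called lower and 13.1% higher with pacritinib at 4 h, and 5.04% and 3.42% with ruxolitinib. At 48 h these shares were 10.1% and 8.26% with pacritinib and 13.2% and 12.5% with ruxolitinib. No count below was tested against these shares, and a few calls in a short list can lie near them. Of 6 genes for SRF and its cofactors, at 4 h 1 was lower and 1 higher with ruxolitinib, 1 was lower with momelotinib, 3 were lower with pacritinib, and none was called with fedratinib or itacitinib. At 48 h 1 was lower with ruxolitinib and 1 with pacritinib. SRF itself fell with ruxolitinib (-0.31, adjusted p = 5.71e-05), momelotinib (-0.36, adjusted p = 1.1e-05) and pacritinib (-0.38, adjusted p = 8.32e-07) at 4 h, with an SE of 0.05 each. None of the 10 MAP kinase genes was called with ruxolitinib, momelotinib, fedratinib or itacitinib at 4 h, and 2 were lower with pacritinib. At 48 h 1 was higher with ruxolitinib and 1 lower with pacritinib. Of 11 tested AP-1 partners and EGR corepressors, at 4 h 3 were lower with ruxolitinib, 1 was lower with momelotinib, 3 were lower and 2 higher with pacritinib, 1 was higher with fedratinib, and none was called with itacitinib. At 48 h 3 were lower and 1 higher with ruxolitinib, 1 lower and 2 higher with pacritinib, 2 higher with fedratinib, and none with momelotinib or itacitinib. BATF3 fell with ruxolitinib at 4 h (-0.95, SE 0.24, adjusted p = 0.00826) and at 48 h (-1.21, SE 0.25, adjusted p = 0.000394). JDP2, a partner that represses AP-1, was lower with ruxolitinib at 48 h (-0.64, SE 0.13, adjusted p = 0.00037) and higher with pacritinib (0.70, SE 0.12, adjusted p = 6.01e-05). CD44, a known AP-1 and EGR1 target, fell with ruxolitinib by -0.39 at 4 h (SE 0.05, adjusted p = 1.35e-06) and by -1.30 at 48 h (SE 0.05, adjusted p = 1.88e-18). It was 1 of 6 tested target genes, of which 3 were lower with pacritinib at 4 h and 1 with each other inhibitor. At 48 h 4 were lower with ruxolitinib, 2 with fedratinib and 1 with itacitinib, pacritinib had 1 of each direction, and momelotinib had none. Of 12 erythroid and megakaryocyte markers, 11 were higher with ruxolitinib at 48 h (12.5% of all genes), with a median log2 change of 0.63. In bulk RNA, fewer cells of a kind and less RNA per cell cannot be told apart.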

How the data were processed

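RNA was sequenced from HEL cells in 12 groups of 2 libraries. Per the submitters' processing notes the authors used bcl2fastq, STAR 2.5.1a, GRCh38 and edgeR. Not given in the sources used here: counting tool, annotation and strand setting. Whole-number read counts per gene were deposited by the authors. Of 34343 entries, 130 repeats with identical counts were dropped.

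Differences were computed in R 4.3.3 with edgeR 4.0.16 (quasi-likelihood F test; limma 3.58.1 loaded). Genes were kept by filterByExpr, totals scaled by TMM, and all 24 libraries fitted together, a mean for every group, with 12 residual degrees of freedom. P-values were adjusted by Benjamini-Hochberg over 16076 genes and called under 0.05. The SE is the absolute log2 change divided by the square root of F. CPM use TMM-scaled totals. Exon lengths are from GENCODE 29.

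Duplicates always differed beyond sampling noise (chi-square per degree of freedom 3.58 to 15.8). In data simulated for ruxolitinib at 4 h over 16076 genes, the test recovered 53.7% of 67 genes changed 1.25-fold, 76.1% of 67 changed 1.5-fold and 78.8% of 66 changed 2-fold, with 14 false among 153 calls.

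The 10 genes and the gene lists were chosen with earlier results of these data known. Named genes outside the 10 were up to 3 called list members per direction and comparison with the largest change, and the 3 genes most correlated with EGR1, FOS, JUN and JUND. Which of those are printed was decided after their values were seen. Alternatives were DESeq2 1.42.0, RLE scaling, dropping the low-count filter, requiring 1 CPM in 6 libraries, fitting 1 time only, the replicate block and leaving out each library. Some values of these lists are not reported here.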

Additional observations from a re-analysis of the deposited data

Results flagged for a closer look

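In 16 cases the change of a member against DMSO differed between 4 h and 48 h in a test of that difference itself (edgeR interaction, change at 48 h minus change at 4 h). Those of FOSL1 were 1.56 with pacritinib, 0.98 with momelotinib, 0.66 with ruxolitinib and 0.66 with fedratinib. FOSL2 gave 1.39 with pacritinib, 0.77 with momelotinib and -0.82 with ruxolitinib. For JUN the values were -0.83 with ruxolitinib, -0.77 with pacritinib and -0.54 with fedratinib, and JUNB gave 0.46 with pacritinib.

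EGR1 gave 0.82 with momelotinib (adjusted p = 0.00684), 0.66 with fedratinib (0.0158) and 0.53 with pacritinib (0.0301). JUND gave 0.33 with fedratinib (0.0256) and FOSB gave -0.88 with pacritinib (0.0368). These 5 and JUN with fedratinib rest on single libraries. JUN with fedratinib was lost without the second DMSO library at 48 h (adjusted p = 0.0881) or the first fedratinib library at 48 h (0.2). EGR1 with fedratinib was lost without the second DMSO library at 4 h (0.0864) or 48 h (0.0927), the second fedratinib library at 4 h (0.0631), the first at 48 h (0.125), and with DESeq2 (0.0607). JUND with fedratinib was lost without the same 4 libraries (0.115 to 0.162). EGR1 with momelotinib was lost without the second DMSO library at 48 h (0.0502), the second momelotinib library at 4 h (0.0736) or the first at 48 h (0.0535). EGR1 with pacritinib was lost in 6 of 8 fits with a library left out (0.0541 to 0.251) and with DESeq2 (0.104), and kept without the first DMSO or first pacritinib library at 4 h. FOSB with pacritinib was lost without either DMSO library at 4 h, the first DMSO library at 48 h, or the second pacritinib library at 4 h or 48 h (0.0649 to 0.199), and without a low-count filter (0.053).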

How the results depend on the processing

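No called change of a member turned direction under any alternative. With each library left out in turn, the number of members called against DMSO at 4 h was 5 to 7 with ruxolitinib, 0 to 1 with fedratinib, 5 to 8 with momelotinib, 6 to 7 with pacritinib and 0 to 1 with itacitinib. At 48 h it was 5 to 6, 1 to 3, 0 to 0, 2 to 3 and 0 to 0 in the same order, and 4 to 6 between the DMSO times. For the interactions it was 3 to 3, 1 to 4, 2 to 5, 4 to 6 and 0 to 0, and for the inhibitor pairs 34 to 42 at 4 h and 32 to 38 at 48 h. The momelotinib interaction count reached 5 without its first library at 4 h, and that of fedratinib fell to 1 without the second DMSO or first fedratinib library at 48 h. With no low-count filter fedratinib at 4 h had 4 members called, itacitinib at 4 h 1, momelotinib at 48 h 1, the momelotinib interaction 5 and the itacitinib interaction 1. That setting added 18 member calls over all comparisons and ended 1, at nearly unchanged log2 changes. The reason was not tested, so calls gained there carry little weight. DESeq2 gave 1 for itacitinib at 4 h and 5 for the momelotinib interaction, and the stricter filter gave 5 for the latter. Fitting only the libraries of 1 time gave 1 for momelotinib at 48 h. Replicate numbers showed no pairing common to all groups. The 66 correlations between the groups' replicate differences ran from -0.346 to 0.38 (median 0.0261), and 18 exceeded 0.1. Such a summary cannot tell whether some of the groups were paired. With the replicate block, itacitinib at 4 h had 1 (FOSL1, adjusted p = 0.0118) and momelotinib at 48 h had 1 (EGR1, adjusted p = 0.0409), and the block ended no member's call and added 10, JUND with fedratinib at 48 h (0.0315) and EGR1 between momelotinib and pacritinib at 4 h (0.0473) among them. RLE scaling ended 1 call and added 1. Where a group was reduced to 1 library, its spread was taken from the remaining groups. Depth limits EGR3, with 0 to 27 reads a library, and FOS, with 16 to 94.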

Other observations

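Heat shock genes, which encode chaperones and their partners, were in part lower at 4 h. Of 8 tested, 3 were lower with ruxolitinib (5.04% of all genes called lower), 3 with fedratinib (0.97%), 5 with momelotinib (3.79%) and 4 with pacritinib (17.4%), none with itacitinib (0.106%), and none was higher. HSPA8, a constitutive chaperone gene, changed by -1.01 with pacritinib (SE 0.04, adjusted p = 2e-17, edgeR) and by -0.53 with momelotinib (SE 0.04, adjusted p = 2.81e-10). HSPA1B, the stress-induced form, changed by -1.77 with pacritinib (SE 0.07, adjusted p = 2.42e-19), though its reads may be shared with the near-identical HSPA1A. At 48 h 4 were lower with pacritinib (10.1% of all genes called lower), with HSPH1 at -0.19 (SE 0.05, adjusted p = 0.00394). At that time 1 was lower with ruxolitinib (13.2% called lower) and 1 higher with fedratinib (3.66% called higher). The ruxolitinib count is near the share of all genes.

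Of 12 erythroid and megakaryocyte genes, 4 were higher with ruxolitinib at 4 h (3.42% of all genes called higher), 4 with momelotinib (2.21%) and 6 with pacritinib (13.1%), and the others were not called. Neither fedratinib nor itacitinib had one called at 4 h. With ruxolitinib at 48 h EPOR, the erythropoietin receptor gene, rose by 1.0 (SE 0.07, adjusted p = 2.68e-13) and TFRC, the transferrin receptor gene, by 0.93 (SE 0.05, adjusted p = 2.08e-16). GP9, a platelet glycoprotein gene, was the 1 marker lower with pacritinib at 48 h (-0.55, SE 0.08, adjusted p = 3.92e-06).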
